A study of Arabidopsis thaliana with 12 samples.

Results

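A set of 68 Arabidopsis thaliana genes ranked lower at high CO2 than at normal CO2 in samples 1 to 4 of each group, while the pair means of all 6 samples a group were not fully separated. In samples 5 and 6 alone, 52 of the 68 ranked higher on average at high CO2 and 16 ranked lower. They were selected on these measured ranks, among 691 genes that had an array probe annotated with 1 gene name, and the brightest probe stood for a gene. Intensities were turned into percentile ranks, where 0 is the dimmest and 100 the brightest of the 3439 probes of a sample. In 142 of the 691 genes every high-CO2 sample 1 to 4 ranked below every normal-CO2 sample 1 to 4, and in 111 of these the mean difference was at least 5 points. The means of samples 1-2, 3-4 and 5-6 of the 2 groups were then fully separated in 40 of the 111 and not in 71. Of the 71, 3 (LrgB, AT3G23940 and AT3G13120) were among 16 named genes set aside, which left 68, or 9.84% of the 691. The same steps on all 3439 probes, named or not, kept 397, or 11.5%.

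Total RNA of wild-type plants, ecotype Columbia 0, was measured on arrays in 12 samples. 6 came from plants at normal CO2, labelled 0 d, and 6 from plants that ended their growth with 6 d at 1% (v/v) CO2. The labels give neither the organ nor the plants' age, and the CO2 level and the 6 d of growth cannot be told apart. Of 13 leaf, root, seed and flower marker genes, 0 had a single-gene probe, so the organ was not checked. Nothing in the labels says that samples are separate plants or harvests, and the p-values then measure only the spread between samples, which may be technical.

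Nearly all chloroplast proteins are made in the cytosol from nuclear genes, so that the plastid depends on transcripts whose levels respond to light, sugars and the state of the plastid itself. Extra CO2 feeds carbon fixation by Rubisco and suppresses photorespiration, the salvage route that starts when Rubisco takes up oxygen. Growth at high CO2 is known to raise leaf sugars, which repress many photosynthesis genes in Arabidopsis.

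Samples 5 and 6 stood apart in both groups. Across probes, which are not independent replicates, the Pearson correlation of quantile-normalized log2 values of high-CO2 samples 5 and 6 was 0.901 to 0.917 against the first 4 normal-CO2 samples, but 0.837 to 0.866 against the first 4 of their own group. Normal-CO2 samples 5 and 6 stood at 0.796 to 0.803 against the first 4 of their own group and at 0.726 to 0.781 against the first 4 high-CO2 samples, so they were nearer to their own label. Whether the labels of samples 5 and 6 are right was not tested. The correlation was 0.919 to 0.981 between the partners 1-2, 3-4 and 5-6 of a group. Results below are therefore mostly given for samples 1 to 4 and for samples 5 and 6 apart, while some limma counts pool the 12 samples. The ranks of samples 1 to 4 and the order of the pair means chose the 68 genes, so their differences are a description and carry no test.

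In samples 1 to 4 the 68 genes held middle to high ranks at normal CO2 and lower ones at high CO2. Their median rank was 60.3, 59.3, 63.3 and 60.1 in normal-CO2 samples 1 to 4, and 41.5, 40.9, 40.3 and 35.6 in high-CO2 samples 1 to 4. In samples 5 and 6 the order was the other way: the median rank was 41.1 and 39.7 at normal CO2 and 56.1 and 58.1 at high CO2. Over all 691 genes the median rank stayed between 44.1 and 48.0 in the 12 samples. The 68 genes thus ranked low as a set in high-CO2 samples 1 to 4 and in normal-CO2 samples 5 and 6, and high in the other 6.

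**Figure D1:**
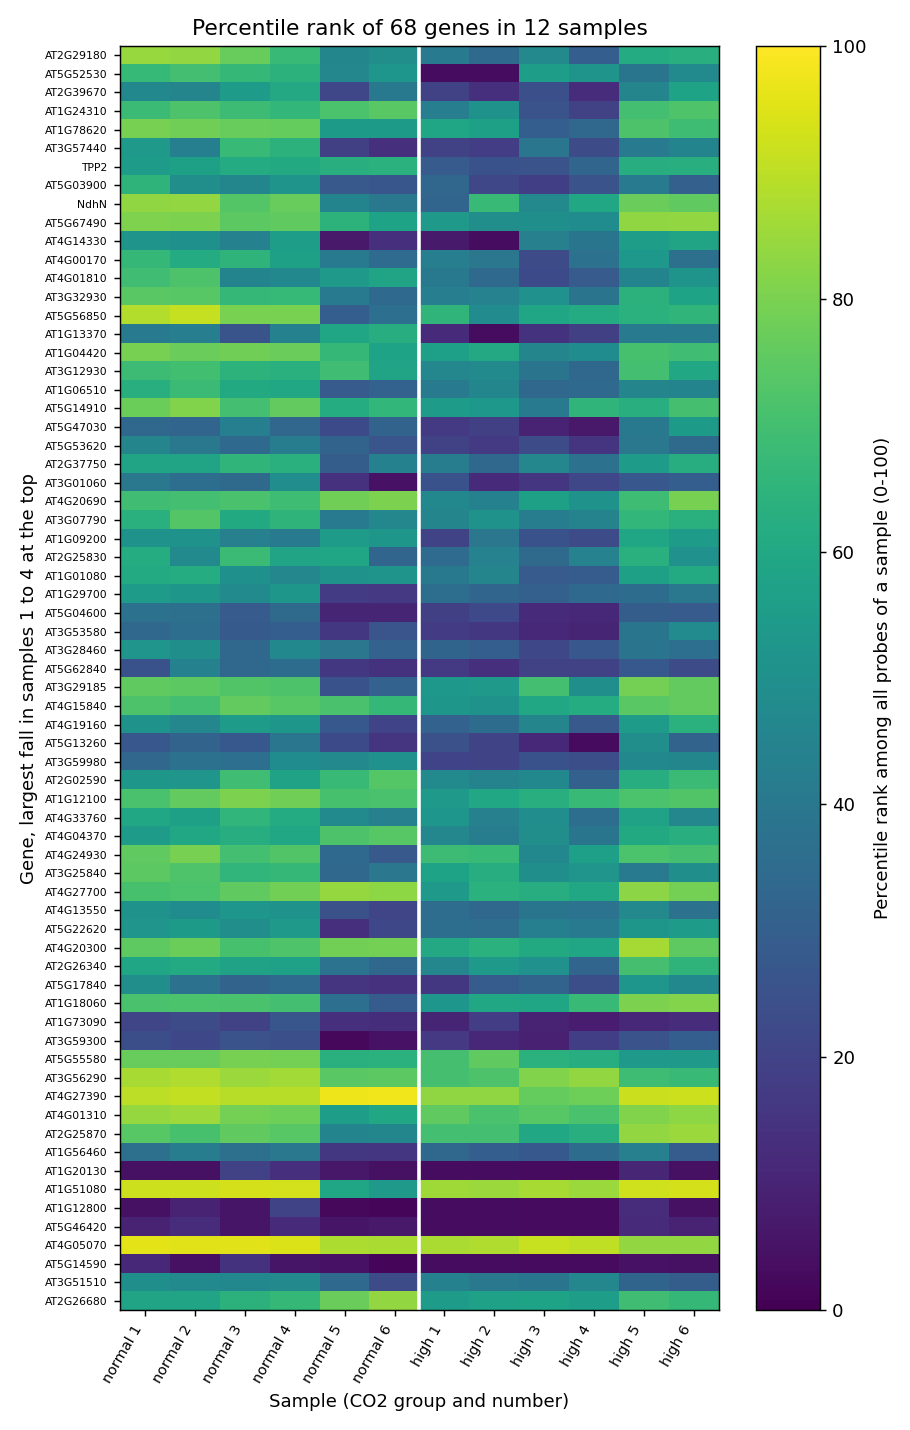
Percentile rank (colour, 0 to 100 among all probes of a sample) of the 68 genes (rows, largest difference in samples 1 to 4 at the top) in 12 samples (columns, normal CO2 left of the white line and high CO2 right of it). Most rows are darker in high-CO2 samples 1 to 4 and in normal-CO2 samples 5 and 6 than in the other samples.

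Gene by gene, the rank difference (high minus normal CO2) in samples 1 to 4 had a median of -16.9 points and ran from -40.1 to -5.31. Taken by pair, its median was -17.7 in samples 1 and 2 and -17.6 in samples 3 and 4. It was at least 20 points in 25 genes, between 10 and 20 in 30, and below 10 in 13. In samples 5 and 6 the median difference was 9.01 points, from -19.6 to 49.2, positive in 52 genes and negative in 16. The medians over all 691 genes were 0 points in samples 1 to 4 and 0.32 points in samples 5 and 6.

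Both high-CO2 samples 5 and 6 ranked above both normal-CO2 samples 5 and 6 in 42 of the 68 genes (61.8%), against 41.0% of the 691 genes. They ranked below both in 12 of the 68, against 39.8% of the 691, and overlapped in 14. The rule shifts these shares, since a gene whose samples 5 and 6 clearly follow samples 1 to 4 has separated pairs and was left out. The 40 genes with separated pairs had a like median difference in samples 1 to 4, -17.1 points, and a median of -11.4 points in samples 5 and 6.

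Both groups' samples 5 and 6 took part in the break of order. High-CO2 samples 5 and 6 both ranked above all 4 of high-CO2 samples 1 to 4 in 52 of the 68 genes, against 23.6% of all 691. Normal-CO2 samples 5 and 6 both ranked below all 4 of normal-CO2 samples 1 to 4 in 47, against 34.3% of all 691. They both ranked above all 4 in 9, for which the share of all 691 was not counted. The rule favours the counts of 52 and 47, since it chose genes low in high-CO2 and high in normal-CO2 samples 1 to 4. It also required pairs that were not separated, so nothing is read from these counts. By pair means, 23 genes were kept because high-CO2 samples 5-6 lay at or above the lower of the normal-CO2 pairs 1-2 and 3-4, 22 because normal-CO2 samples 5-6 lay at or below the higher of the high-CO2 pairs 1-2 and 3-4, and 16 for both reasons. In the other 7 samples 5-6 stayed clear of the other group's pairs 1-2 and 3-4, but high-CO2 samples 5-6 ranked above normal-CO2 samples 5-6. The median difference in samples 5 and 6 was 1.06 points in the first form, 12.5 in the second, 34.4 where both held and 8.01 in the last.

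**Figure D2:**
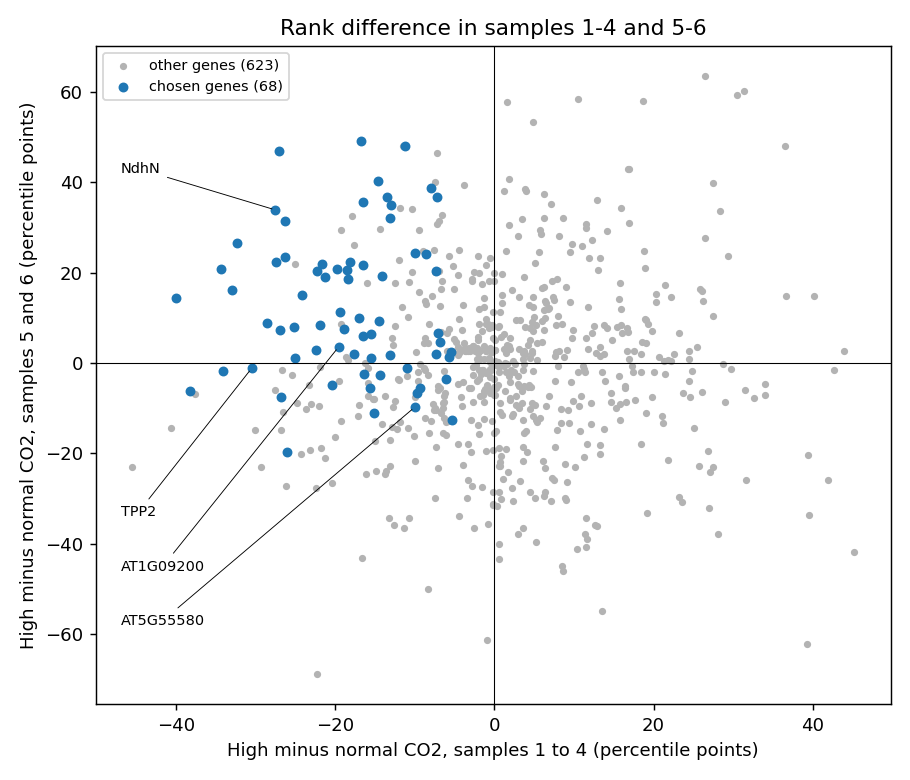
Rank difference (high minus normal CO2, percentile points) in samples 1 to 4 (horizontal axis) and in samples 5 and 6 (vertical axis), 1 point per gene, for the 68 chosen genes (blue) and the other genes (grey). The blue points all lie left of 0, as the rule requires, and 52 of the 68 lie above 0 on the vertical axis.

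Only 4 of the 68 genes carry a name in the annotation other than a locus code (5.88%, against 14.9% of the 691). These are NdhN of the photosynthetic apparatus, the peptidase gene TPP2, the chromatin gene AT1G09200 (H3.1) and AT5G55580 (mTERF9), of a family that acts in organelles. No role is given below for genes with a locus code alone.

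NdhN encodes a subunit of the chloroplast NADH dehydrogenase-like complex, which carries electrons from ferredoxin back to plastoquinone in cyclic electron flow around photosystem I. It ranked at 83.5, 83.6, 73.1 and 76.6 in normal-CO2 samples 1 to 4 and at 32.7, 67.3, 47.0 and 59.6 in high-CO2 samples 1 to 4. Normal-CO2 samples 5 and 6 had ranks of 45.2 and 39.9, and high-CO2 samples 5 and 6 had 77.1 and 75.7. The 4 high-CO2 samples spread widely, with partners 1 and 2 farthest apart, and samples 5 and 6 swapped the places of the groups. The mean rank was 79.2 ± 5.22 at normal and 51.7 ± 15.1 at high CO2 (SD, n = 4 each, samples 1 to 4), a difference of -27.5 points, against 33.9 points in samples 5 and 6. Its deposited intensity was 0.712, 0.714, 0.400 and 0.483 in normal-CO2 samples 1 to 4 and 0.210, 0.534, 0.366 and 0.479 in high-CO2 samples 1 to 4, so the groups overlapped on that scale.

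NdhS, PIFI, CRR21 and CRR41 had smaller rank differences than NdhN. The rule chose NdhN for its lower ranks in samples 1 to 4, so nothing is read from this contrast. Among these other genes the annotation names the complex only for NdhS. NdhS, another subunit gene of the complex, had mean ranks of 98.1 at normal and 98.5 at high CO2 in samples 1 to 4, near the top of the array. PIFI, named for the rise of chlorophyll fluorescence after illumination, differed by -15.9 points in samples 1 to 4 and by -1.02 in samples 5 and 6, with every pair separated. CRR21 and CRR41, named for reduced chlororespiration, differed by 5.02 and -0.545 points in samples 1 to 4 and by 10.2 and 23.1 points in samples 5 and 6, where NdhN had a positive difference too. These differences between genes were not tested. Of 6 genes with a photosynthesis word in their annotation, 1 was higher and 0 lower over the 12 samples by the limma test described below, against 5.52% and 6.96% of all probes. In samples 1 to 4, 1 was higher and 3 lower, against 18.2% and 19.8% of all probes. Nothing is read from the latter count, since these genes include NdhN, which was chosen on the same samples.

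TPP2 encodes tripeptidyl peptidase II, a very large serine peptidase that cuts tripeptides from the ends of peptides. Its ranks were 55.2, 56.8, 61.5 and 60.6 in normal-CO2 samples 1 to 4 against 28.6, 25.1, 25.8 and 32.5 in high-CO2 samples 1 to 4. Samples 5 and 6 had 63.2 and 64.0 at normal and 62.1 and 62.7 at high CO2. The gap between the lowest normal and the highest high-CO2 sample among samples 1 to 4, 22.7 points, was the widest of the 68 genes, whereas samples 5 and 6 of both groups lay together above all of samples 1 to 4. The rank differences were -30.5 and -1.19 points. As deposited, TPP2 had intensities of 0.196 to 0.238 in normal-CO2 and 0.160 to 0.245 in high-CO2 samples 1 to 4, which overlap. In samples 5 and 6 its mean intensity at high CO2 was 0.670 times that at normal CO2. Of 4 genes with a protein-fate word, TPP2 included, 0 were lower over the 12 samples (6.96% of all probes) and 2 in samples 1 to 4 (19.8% of all probes), where TPP2 was chosen.

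AT1G09200 encodes histone H3.1, the form of histone H3 that is laid down on newly replicated DNA. It ranked at 51.2, 51.5, 43.6 and 40.7 in normal-CO2 samples 1 to 4, and at 20.6, 39.7, 25.1 and 23.1 in high-CO2 samples 1 to 4. The lowest normal and highest high-CO2 sample lay only about a point apart. Samples 5 and 6 held the highest ranks of the gene in both groups, 54.7 and 53.0 at normal and 59.3 and 55.4 at high CO2. In deposited intensity the mean of high-CO2 samples 1 to 4 was 1.29 times that of normal-CO2 samples 1 to 4. The ratio was 0.778 in samples 5 and 6. AT5G65360, which the annotation also names H3.1, had mean ranks of 5.12 and 4.57 in samples 1 to 4, near the bottom of the array. Genes for this histone are nearly identical in sequence, so the signal cannot be assigned to 1 of them with certainty.

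AT5G55580 is annotated as mTERF9, a member of a family named after a mitochondrial transcription termination factor whose plant members act in gene expression of chloroplasts and mitochondria. Normal-CO2 samples 1 to 4 had ranks of 76.9, 76.9, 79.4 and 79.3, and high-CO2 samples 1 to 4 had 70.5, 75.7, 63.8 and 62.5. At normal CO2 samples 5 and 6 ranked at 63.7 and 63.8, and at high CO2 both at 53.9. The direction was kept in samples 5 and 6, with a difference of -9.81 points against -10.03 in samples 1 to 4, and samples 5 and 6 of each group ranked below samples 1 to 4 of their own group. The pairs were not separated because normal-CO2 samples 5 and 6 ranked within the range of high-CO2 samples 1 to 4. In deposited intensity high-CO2 samples 1 to 4 were at 1.13 times and samples 5 and 6 at 0.506 times the normal-CO2 mean.

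**Figure D3:**
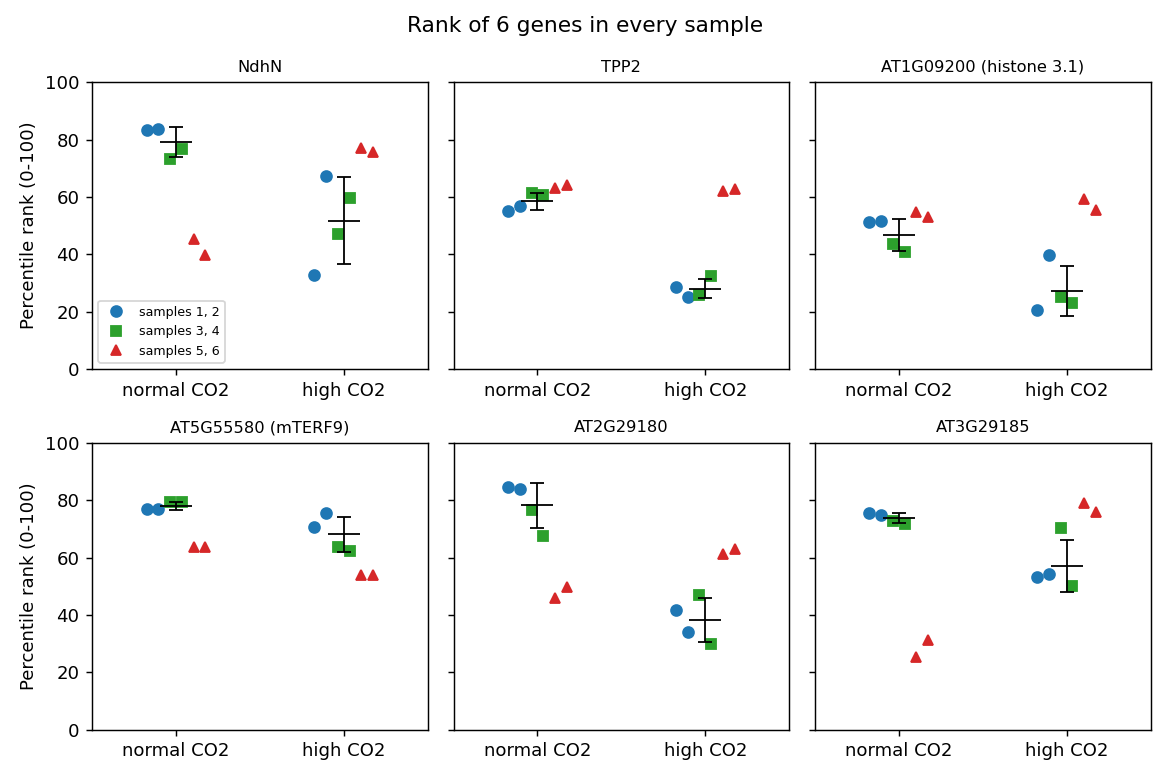
Percentile rank (vertical axis, 0 to 100) of 6 genes at normal and high CO2, with samples 1 and 2 as circles, 3 and 4 as squares and 5 and 6 as triangles, and the mean ± SD of samples 1 to 4 in black. Samples 5 and 6 reverse the order of the groups in NdhN, AT2G29180 and AT3G29185, lie together in TPP2 (62.1 to 64.0), and keep the order in AT5G55580.

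The largest rank difference belonged to AT2G29180. Its ranks were 84.6, 83.9, 76.7 and 67.7 in normal-CO2 samples 1 to 4 and 41.6, 34.1, 47.0 and 29.9 in high-CO2 samples 1 to 4, with 45.9 and 49.6 in normal-CO2 and 61.4 and 62.9 in high-CO2 samples 5 and 6. The mean was 78.2 ± 7.87 against 38.1 ± 7.67 (SD, n = 4 each), a difference of -40.1 points. This gene was lower as deposited too, at 0.479 times the normal-CO2 intensity in samples 1 to 4, the lowest ratio above 0 in the set. Samples 5 and 6 were at 1.11 times.

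AT5G52530 followed with -38.3 points, a value that rested on high-CO2 samples 1 and 2. Both were listed at 0, while high-CO2 samples 3 and 4 ranked at 55.7 and 51.8 against 64.2 to 70.0 in normal-CO2 samples 1 to 4. By pair its difference was -64.9 points in samples 1 and 2, the largest of all pair differences among the 68 genes. A value of 0 can be a failed estimate, so the size of this difference is uncertain.

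AT1G24310 showed the opposite split between pairs, with high-CO2 ranks of 42.9 and 50.8 in samples 1 and 2 and 25.4 and 19.3 in samples 3 and 4, against 66.2 to 72.1 in the 4 normal-CO2 samples. Like TPP2, it had samples 5 and 6 of both groups close together, at 70.1 to 74.5. AT1G78620 also had its lower high-CO2 ranks in samples 3 and 4, 29.7 and 33.8 after 59.1 and 56.8 in samples 1 and 2, and ranked at 76.5 to 79.5 in normal-CO2 samples 1 to 4. In samples 5 and 6 AT1G78620 turned, with 54.3 and 54.6 at normal and 72.1 and 68.9 at high CO2. The remaining genes among the 10 largest differences were AT2G39670 (-34.4 points), AT3G57440 (-32.4), AT5G03900 (-28.6) and AT5G67490 (-27.4). In samples 5 and 6 these 4 differed by 20.8, 26.6, 8.81 and 22.4 points, each turned against samples 1 to 4. AT5G67490 was the most even of them, at 48.6 to 54.1 in high-CO2 and 74.6 to 80.8 in normal-CO2 samples 1 to 4.

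Reversal in samples 5 and 6 was largest in AT3G29185. It ranked at 75.5, 74.9, 72.7 and 71.9 in normal-CO2 samples 1 to 4 and at 53.3, 54.2, 70.3 and 49.96 in high-CO2 samples 1 to 4. Normal-CO2 samples 5 and 6 were at 25.3 and 31.3 and high-CO2 samples 5 and 6 at 79.2 and 75.9, a difference of 49.2 points against -16.8 in samples 1 to 4. AT1G18060, AT4G14330 and AT4G24930 came next, with 48.1, 46.8 and 40.2 points in samples 5 and 6 against -11.2, -27.0 and -14.7 in samples 1 to 4. In all 4 the difference in samples 5 and 6 was larger than that in samples 1 to 4 and opposite in sign. The value of AT4G14330 in samples 1 to 4 rested on high-CO2 samples 1 and 2, at ranks 7.33 and 3.46, the second listed at 0, whereas samples 3 and 4 at 43.4 and 39.1 lay close to the lowest normal-CO2 sample at 44.0.

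At the other end, AT1G13370 had the most negative difference in samples 5 and 6, -19.6 points, with 59.1 and 62.4 at normal and 40.7 and 41.6 at high CO2. In samples 1 to 4 its ranks were 26.1 to 43.9 at normal and 3.46 to 18.8 at high CO2, where sample 2 was listed at 0. Both groups thus lay higher in samples 5 and 6, and the order of the groups held within each set. AT2G26680 and AT4G04370 did likewise, with -12.6 and -11.1 points in samples 5 and 6 and -5.31 and -15.1 in samples 1 to 4. These 3 genes ranked lower at high CO2 within samples 1 to 4 and within samples 5 and 6, and entered the set because high-CO2 samples 5-6 lay at or above the lower of the normal-CO2 pairs 1-2 and 3-4, so they go against a reading of the 68 as lower in samples 1 to 4 alone.

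The 6 brightest of the 68 genes lay in the top ranks, where a small rank difference is a large step in intensity. AT4G05070 had deposited intensities of 2.90, 2.85, 2.86 and 2.52 in normal-CO2 samples 1 to 4 and 1.22, 1.25, 1.70 and 1.49 in high-CO2 samples 1 to 4, and the groups did not overlap. Samples 5 and 6 had 1.20 and 1.17 at normal and 0.692 and 0.690 at high CO2. Its rank difference was -6.09 points but its intensity ratio was 0.508, and 0.582 in samples 5 and 6, the same direction.

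AT1G51080 combined an intensity ratio of 0.596 in samples 1 to 4 with 5.90 in samples 5 and 6. Its intensities ran from 1.61 to 2.04 in normal-CO2 and from 1.05 to 1.18 in high-CO2 samples 1 to 4, then 0.342 and 0.290 in normal-CO2 and 1.81 and 1.93 in high-CO2 samples 5 and 6. AT4G27390 was lower in both sets, at 0.717 and 0.321 times the normal-CO2 intensity, with normal-CO2 samples 5 and 6 at 4.83 and 4.95 far above all its other samples. For AT3G56290 the ratios were 0.847 and 0.539. AT4G01310 and AT4G27700, at 1.01 and 1.09 times in samples 1 to 4, were not lower in mean intensity although their ranks differed by -8.63 and -14.3 points.

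That split between rank and intensity held for much of the set. The median intensity over all probes was 0.340 to 0.390 in high-CO2 samples 1 to 4 and 0.160 to 0.166 in normal-CO2 samples 1 to 4, and it was 0.174 to 0.175 in high-CO2 and 0.255 to 0.256 in normal-CO2 samples 5 and 6. Deposited intensities of most genes were therefore higher in high-CO2 samples 1 to 4, with a median ratio of 2.06 over the 663 genes that have one. The 68 genes had a median ratio of 1.08, and each of the 68 lay under 2.06. The choice by lower rank in these samples favours low ratios, so this is a description only. Mean intensity was lower at high CO2 in 28 of them and higher in 40. Only 7 had every high-CO2 sample 1 to 4 below every normal-CO2 one in intensity (4.20% of all 691 genes did), and 10 had every one above (53.3% of all 691). Examples of higher intensity with lower rank were AT1G56460 at 2.02 times, AT3G51510 at 2.01 times and AT2G26680 at 1.72 times. The label of lowered genes thus describes their place among the probes, and 40 of 68 were not lowered in the values as deposited. Whether the scale of the deposited values or the RNA itself differed between samples was not tested.

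**Figure D4:**
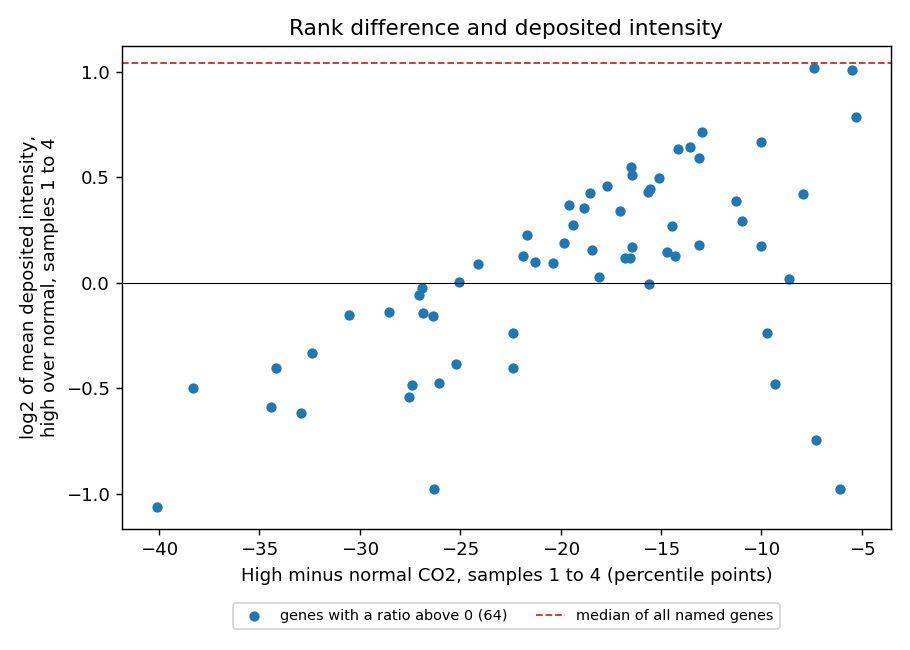
Rank difference in samples 1 to 4 (horizontal axis, percentile points) and log2 of the ratio of mean deposited intensities, high over normal CO2, in the same samples (vertical axis), for the 64 genes with a ratio above 0. All points lie under the dashed line, the median ratio of all named genes (2.06), which the choice by lower rank favours. Most lie above 0, the line of equal intensity.

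Some of the set lay at the bottom of the array. AT1G12800, AT1G20130, AT5G14590 and AT5G46420 were listed at 0 in all of high-CO2 samples 1 to 4, and the first 3 of them also in 2 of normal-CO2 samples 1 to 4, AT5G46420 in 1. Tied zeros share 1 rank, which depends on how many zeros a sample has, and it was 4.51 to 5.80 in normal-CO2 and 2.98 to 3.46 in high-CO2 samples 1 to 4. A 0 thus ranked higher at normal CO2, and with the lowest rank given to ties these 4 genes, and no other, left the set. Their highest intensity in any of the 12 samples was 0.0381, so nothing beyond their listing can be said of them. In all, 9 of the 68 genes were listed at 0 in at least 1 sample.

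At normal CO2, in samples 1 to 4, 34 of the 68 genes had a mean rank between 50 and 75, against 26.9% of all 691. Between 25 and 50 there were 14 (20.6%, against 27.9%), and above 75 also 14 (20.6%, against 18.4%). A rank up to 25 was held by 6 (8.82%), against 26.8%. A gene near the bottom has little room to rank 5 points lower, which limits the last share. The rule used these same ranks and favours genes that ranked high there, so nothing is read from the shares. In the RefSeq gene order, no 2 of the 68 genes were direct neighbours, and 1 pair, AT2G25830 and AT2G25870, lay within 5 places of each other. AT2G25870 was the 1 gene with a second single-gene probe. This dimmer probe differed by -14.7 points in samples 1 to 4 and by 8.13 in samples 5 and 6, against -7.92 and 38.8 for the probe used, so both had the same signs and different sizes.

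Near the threshold of 5 points, the set ended with AT5G14590 (-5.67), AT3G51510 (-5.47) and AT2G26680 (-5.31). Just outside it were AT3G47080 (-4.59), AT4G32060 (-4.40) and AT1G66090 (-3.53), which met the other conditions. The gap between the groups in samples 1 to 4 had a median of 5.58 points and was under 1 point in 9 of the 68 genes, so that for those a small change in 1 sample would decide their place.

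After quantile normalization, which gives all samples the same distribution and so keeps mainly the ranks, the median log2 difference of the 68 genes was -0.455 over the 12 samples and -0.915 in samples 1 to 4. In the limma test with Benjamini-Hochberg adjustment over all 3349 tested probes, 418 (12.5%) passed over the 12 samples. Among the 418, 233 were lower (6.96% of all probes), and 0 of the 68 genes passed. An unadjusted p under 0.05 was met by 21 of the 68 genes and by a like share of all probes, 1011 of 3349. In samples 1 to 4, 662 probes were lower (19.8%), among them 55 of the 68. Nothing is read from these counts, since the rule used the same samples. With values as deposited the limma fit in samples 1 to 4 gave 8 of the 67 genes tested as lower (6.79% of all probes) and 10 as higher (53.2% of all probes), so the direction depended on the scaling. Over the means of samples 1-2 and 3-4, 0 of 3349 probes passed (1059 at an unadjusted p under 0.05).

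The fold of single genes in samples 1 to 4 after quantile normalization ranged widely. NdhN was at 0.384 times and TPP2 at 0.381 times the normal-CO2 level, and AT1G09200 and AT5G55580 at 0.499 and 0.686 times. AT2G39670 had the lowest, 0.240 times, followed by AT5G52530 at 0.254 and AT2G29180 at 0.262 times. The value of AT5G52530 rested on high-CO2 samples 1 and 2, which were listed at 0 and raised to the floor. Its ratio of deposited intensities in samples 1 to 4 was 0.708. In samples 5 and 6 AT2G39670, AT5G52530 and AT2G29180 were at 2.03, 0.831 and 1.52 times. AT4G14330, AT1G51080, AT3G29185 and AT1G18060 had the highest values there, 7.13, 6.58, 5.03 and 4.97 times, after 0.349, 0.506, 0.579 and 0.694 times in samples 1 to 4. On this scale the sign turned between samples 1 to 4 and samples 5 and 6 in each of these 4, as it did on ranks. Quantile normalization keeps mainly the ranks, so this is the same result and no second piece of evidence.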

How the data were processed

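The deposited series table holds intensities of 3439 probes in 12 samples. The scale was taken to be linear because no value is negative and each sample has 133 to 398 zeros. How the authors scanned, corrected and normalized the arrays is not given in the sources used here. Groups and sample numbers were read from the sample titles and sources. The number of samples limits the precision.

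Probes were named through an older platform annotation: 692 had 1 gene, 870 several and 1877 none given, and 690 of the 692 matched RefSeq genes of TAIR10.1, used only for names and gene order. Percentile ranks (average ties) were taken over all probes of a sample (pandas 2.3.3). For log2 values the table was quantile normalized, zeros were kept, values under a common floor of 0.0398 were raised to it (which understates folds of dim probes), and the 2 groups were compared probe by probe (lmFit, eBayes; limma 3.58.1, R 4.3.3). Probes at the floor in all samples (90 of 3439) were left out.

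The members, gene lists and tests were chosen with earlier results of these data known. Genes named singly are the 10 largest differences, the 6 brightest, up to 4 per annotation class, the 4 extremes in each direction in samples 5 and 6, and 3 on each side of the threshold. Others are named where a sentence singles them out, after their values were seen. Classes came from words in symbols and synonyms, which 588 of 691 genes lack. Of the 13 marker genes 0 could be used. Sequences, promoter motifs and protein features were not analysed here. The fit was tested on simulated data drawn as independent samples, without the likeness of the partners 1-2, 3-4 and 5-6. That test does not show how this likeness affects the counts of passing probes. Of 54 groups of 6 ranks, 0 held a sample far from the other 5. The check looks for a lone sample and can miss partners that lie apart together. It therefore does not show that the groups were free of outlying samples.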

Additional observations from a re-analysis of the deposited data

How the results depend on the processing

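The 27 singly named genes had negative log2 differences in samples 1 to 4 under quantile normalization, median scaling, pair means, the offset in place of the floor, the replicate block and each sample left out, but 16 were negative and 10 positive with values as deposited (1 was untested). The negative signs largely follow from the rule, which chose these genes for lower ranks in these samples. Their size moved by more than the SD within groups in 12 of 27 with median scaling and in 10 of 27 with the offset. As deposited it moved so in 23 of 26, and with the replicate block or a sample left out in 0 of 27. The set of 68 genes had 66 to 84 genes with a sample left out, 72 and 55 at 3 and 10 points, 72 with ranks over single-gene probes and 64 with the lowest rank for ties. Its median difference in samples 1 to 4 was -19.4 points at 10 points. In samples 5 and 6 it was 11.3 with ranks over single-gene probes, 11.2 at 10 points, 10.6 with the lowest rank for ties, and from 7.47 to 12.3 with a sample left out.

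The 418 probes passing over 12 samples became 0 over the means of samples 1-2, 3-4 and 5-6 (408 at an unadjusted p under 0.05) and ranged from 230 to 580 with a sample left out. High-CO2 samples 1 to 4 and normal-CO2 sample 5 lowered the count over 1.5 times, to 266, 242, 230, 240 and 270. The 1270 in samples 1 to 4 became 2026 as deposited, 0 over pair means and 1037 to 1237 with a sample left out. Of the 68 genes, 0 passed over 12 samples. This was 2 as deposited (AT2G26340 and AT2G25870, higher), 2 after median scaling (AT3G56290 and AT4G05070, lower), 1 among the brighter probes, above the median (TPP2, lower), 6 with the replicate block and 0 to 7 with a sample left out: 7 and 5 without high-CO2 samples 5 and 6, 2 without normal-CO2 sample 3, 1 without normal-CO2 sample 6, otherwise 0. In samples 1 to 4, 55 became 18 of 67 as deposited (8 lower and 10 higher), where 2026 of all 3375 probes passed. Among the brighter probes 34 of the 35 tested passed, beside 904 of all 1719. The count was 0 over pair means and 43 to 55 with a sample left out. The rule used the same samples, so nothing is read from these counts of the 68 genes. As deposited, 326 probes were higher and 65 lower over 12 samples, against 185 and 233, with a log2 shift of 0.449 for the median probe. After median scaling 85 were higher and 246 lower. Some settings hold fewer genes or samples. The cause of the changes in these counts was not tested.

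Whether equal sample numbers pair the samples was not settled. Residual correlations between samples of equal number ran from -0.0784 to 0.158, and 2 of 6 high-CO2 samples were closest to their own number. The samples that stood apart in both groups can shape these residuals, so the check cannot exclude pairing. With the replicate block 460 probes passed over 12 samples and 1191 in samples 1 to 4. The floor and the zeros limit dim genes.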
